A study of Mus with 21 samples.

Results

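The genes described here are 40 genes of skeletal muscle, taken by symbol from the 18806 genes counted in wounds of mouse back skin. They were listed by what their proteins do in muscle, with earlier results of these data known. Of the 40, 35 belong to the mature muscle fibre: 13 fast isoforms, 5 slow isoforms, 9 sarcomere genes used by both kinds of fibre, 4 genes of calcium handling and signalling, and 4 metabolic genes. The other 5 mark regenerating muscle (Myh3, Myh8, Myog, Myod1 and Pax7). Each of the 40 had counts in the files and passed the filter on low counts in every comparison, and all 40 symbols were found in RefSeq.

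Skeletal muscle contracts through sarcomeres, in which thick filaments of myosin slide along thin filaments of actin under the control of troponin and calcium. Fast and slow fibres build the same machine from different isoforms of myosin, troponin and their partners. After injury, Pax7-positive satellite cells start to divide, switch on MyoD and then myogenin, fuse into new fibres, and for a time make the embryonic and neonatal myosins Myh3 and Myh8. Mouse back skin carries a thin sheet of skeletal muscle, the panniculus carnosus, below the dermis.

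RNA was sequenced from wounds of 21 female wild-type C57BL/6 mice, 8 weeks old, on Day 4 after a circular full-thickness punch wound of 8 mm had been made on each side of the back, splinted and covered with a transparent dressing. The 7 groups held 3 mice each: a control that received no hydrogel scaffold, and wounds that received a scaffold of GelMA, a light-cured gelatin hydrogel, set to pH 6.4, 7.4 or 8.4 and loaded with aFGF or bFGF, the acidic and basic fibroblast growth factors. Group names give the pH first, so that 6.4/aFGF is the hydrogel of pH 6.4 with aFGF. The control differed from the other groups in both the hydrogel and the growth factor, so these cannot be told apart, and there was no hydrogel without a growth factor. Whether a library came from 1 or both wounds of a mouse is not given in the sources used here.

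Total counts per library lay between 34362558 and 37817833. Levels are in CPM, library-scaled counts with TMM factors, and wherever 3 values stand in a row they are replicates 1, 2 and 3. The quasi-likelihood test of edgeR was fitted on all genes that passed the filter. A gene passed the test at a Benjamini-Hochberg adjusted p under 0.05 over all genes tested and a log2 fold change beyond 0.58. In 3 libraries, genes of other tissues stood out. Col2a1, a collagen of cartilage, was at 200.1 CPM in 7.4/aFGF replicate 3 and at most 0.944 CPM elsewhere. Alb, the albumin gene of liver, was at 138 CPM in 8.4/aFGF replicate 2 and at most 13.8 CPM elsewhere. Ovgp1, an oviduct gene, was at 80.2 CPM in 8.4/bFGF replicate 2 and at most 1.98 CPM elsewhere.

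The most abundant muscle mRNA was that of Acta1, the skeletal muscle actin of the thin filament. In the control wounds Acta1 was at 1047, 1352 and 2945 CPM. With aFGF it was at 468, 426 and 5943 CPM at pH 6.4, at 1413, 778 and 4675 CPM at pH 7.4, and at 2394, 2968 and 1051 CPM at pH 8.4. With bFGF the values were 1055, 774 and 1115 CPM at pH 6.4, 4161, 4324 and 119 CPM at pH 7.4, and 4693, 1087 and 1544 CPM at pH 8.4. The 3 mice of a group thus often differed more than the groups did: the highest library of 6.4/aFGF had 13.9 times the Acta1 level of the lowest, and in 7.4/bFGF this ratio was 36.4, while in 6.4/bFGF it was 1.44. The group means were 1782 ± 1019 CPM in control, 2279 ± 3173 in 6.4/aFGF, 2289 ± 2091 in 7.4/aFGF, 2138 ± 984 in 8.4/aFGF, 981 ± 182 in 6.4/bFGF, 2868 ± 2382 in 7.4/bFGF and 2441 ± 1963 in 8.4/bFGF (SD, n = 3 each). The ranges of all 7 groups overlapped. In RNA of whole wounds, fewer muscle cells and less RNA per muscle cell cannot be told apart.

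**Figure D1:**
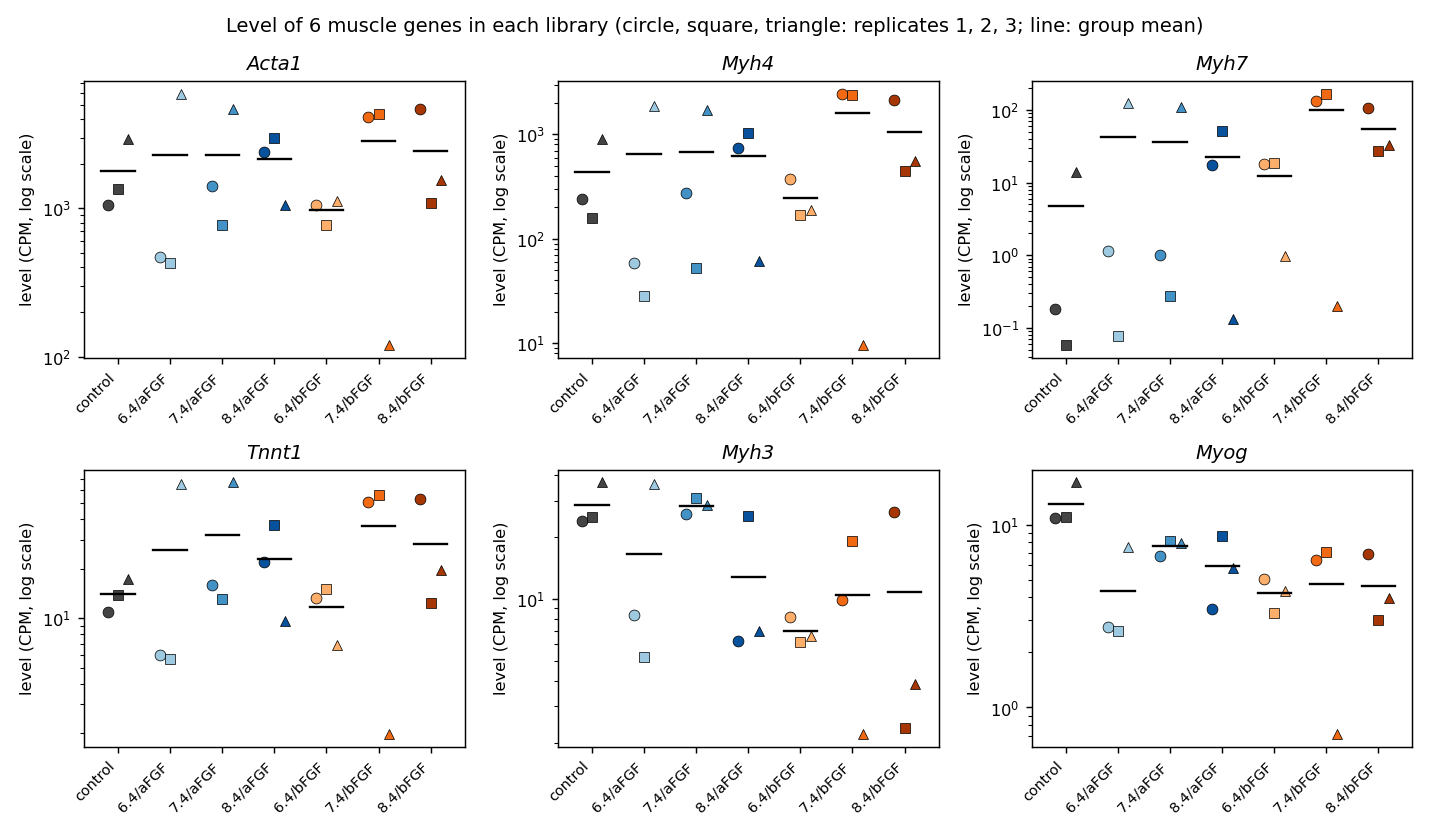
Levels of Acta1, Myh4, Myh7, Tnnt1, Myh3 and Myog in CPM on a log axis, with 1 point per library (circle, square and triangle for replicates 1, 2 and 3) and a line at each group mean. Within 7.4/bFGF, replicate 3 lies far below replicates 1 and 2 in Acta1 (119 against 4161 and 4324 CPM), and in Myog all hydrogel libraries lie below the 3 control libraries (at most 8.64 against at least 10.9 CPM).

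Per kilobase of transcript, on the FPKM scale, Acta1 had a median of 807 FPKM over the 21 libraries. It was followed by Mylpf, the fast regulatory myosin light chain (379 FPKM), Ckm, the creatine kinase that buffers ATP in muscle (256 FPKM), and Tnnt3, the fast troponin T (227 FPKM). The 13 fast members had medians from 8.02 FPKM (Myh2) to 379 FPKM (Mylpf), and the 5 slow members from 2.48 FPKM (Myh7) to 19.3 FPKM (Mybpc1, the slow myosin-binding protein C). The muscle of these wounds was thus mostly of the fast kind by its mRNA. Among the regeneration genes, the medians were 4.41 FPKM for Myog, 1.69 FPKM for Myh8 and for Myh3, 0.903 FPKM for Myod1 and 0.0667 FPKM for Pax7.

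The spread within groups was a property shared by the mature fibre genes. The median SD within groups was 1.79 on the log2 scale over the 35 mature members, from 1.17 for Eno3, the muscle enolase, to 4.00 for Myh7. It was 1.16 over the 5 regeneration members (0.851 for Myog to 1.48 for Myod1) and 0.287 over the 15811 genes tested. Together the 40 genes took from 0.0437% of all counts (7.4/bFGF replicate 3) to 2.44% (6.4/aFGF replicate 3). The first of these libraries was the lowest of all 21 for 38 of the 40 genes, and the second was the highest for 15. Control replicate 3 was the highest library for all 5 regeneration genes and for 0 of the 35 mature genes.

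**Figure D2:**
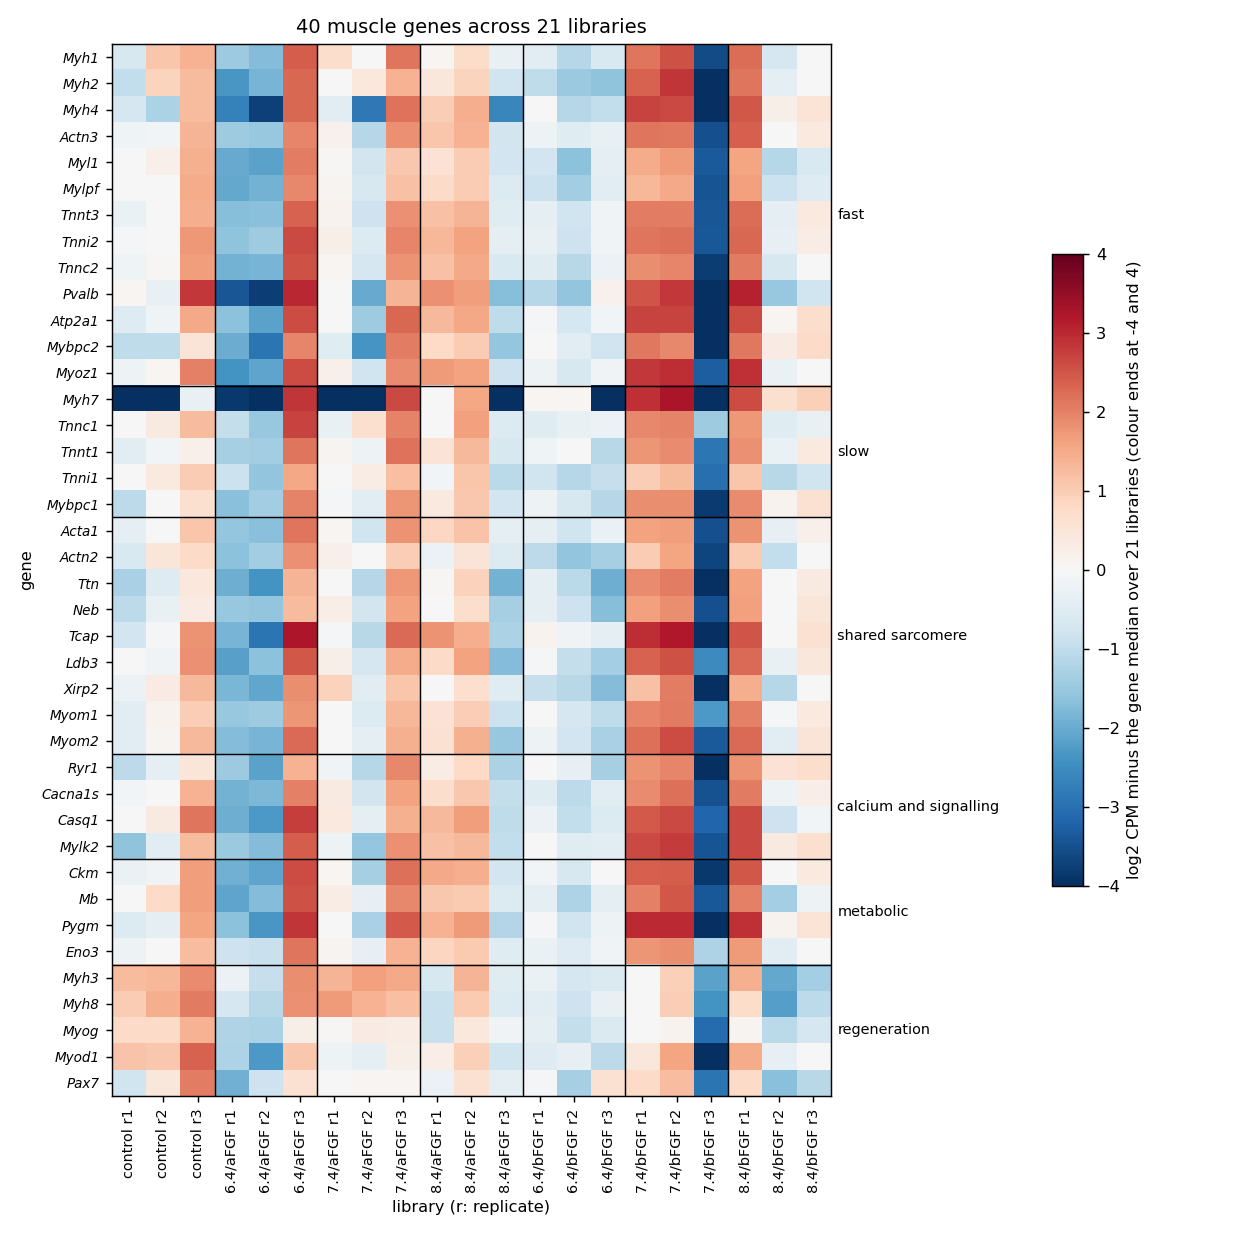
Each row is 1 of the 40 genes, each column 1 of the 21 libraries, and the colour is the log2 CPM minus the gene's median over the libraries, cut at -4 and 4. The mature genes share 1 pattern over the columns, with 7.4/bFGF replicate 3 lowest in 33 of 35 of them, while the 5 regeneration genes are all highest in control replicate 3.

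Over the libraries, the mature genes followed Acta1 closely and the regeneration genes less so. Of the 39 other members, 39 were correlated with Acta1 in log2 CPM over 21 libraries at an adjusted p under 0.05 (permutation test, 100000 resamples, adjusted over 39 genes). Pearson's r lay between 0.751 (Myh7) and 0.996 (Tnnt3) for the 34 mature genes, with a median of 0.958, and Spearman's rho between 0.747 and 0.983. For the 5 regeneration genes r lay between 0.621 (Myh3) and 0.851 (Myod1) and rho between 0.532 and 0.768. The largest adjusted permutation p was 0.00232 for r and 0.0141 for rho. Adjusted over all 15810 other genes tested in place of the 39, 34 of 34 mature and 3 of 5 regeneration genes passed, as did 3.4% of all those genes with a positive r. An r of at least 0.621, the lowest of any member, was found in 3.66% of them. Without the 2 libraries farthest from the median Acta1 level, 6.4/aFGF replicate 3 and 7.4/bFGF replicate 3, r stayed at 0.744 to 0.996 for the mature genes. For the regeneration genes it was then 0.443 to 0.754. Myh3 (r = 0.449) and Myh8 (r = 0.443) no longer passed (permutation p = 0.0548 and 0.0591). Fewer libraries over a narrower range of Acta1 were left, so for these 2 genes the relation was less certain without those libraries. By Spearman's rho, 2 of the 5 regeneration genes passed without them (rho 0.386 to 0.730, largest adjusted permutation p = 0.104). In deviations from the group means, which leave out differences between groups, r was 0.869 to 0.998 for mature and 0.803 to 0.934 for regeneration genes.

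**Figure D3:**
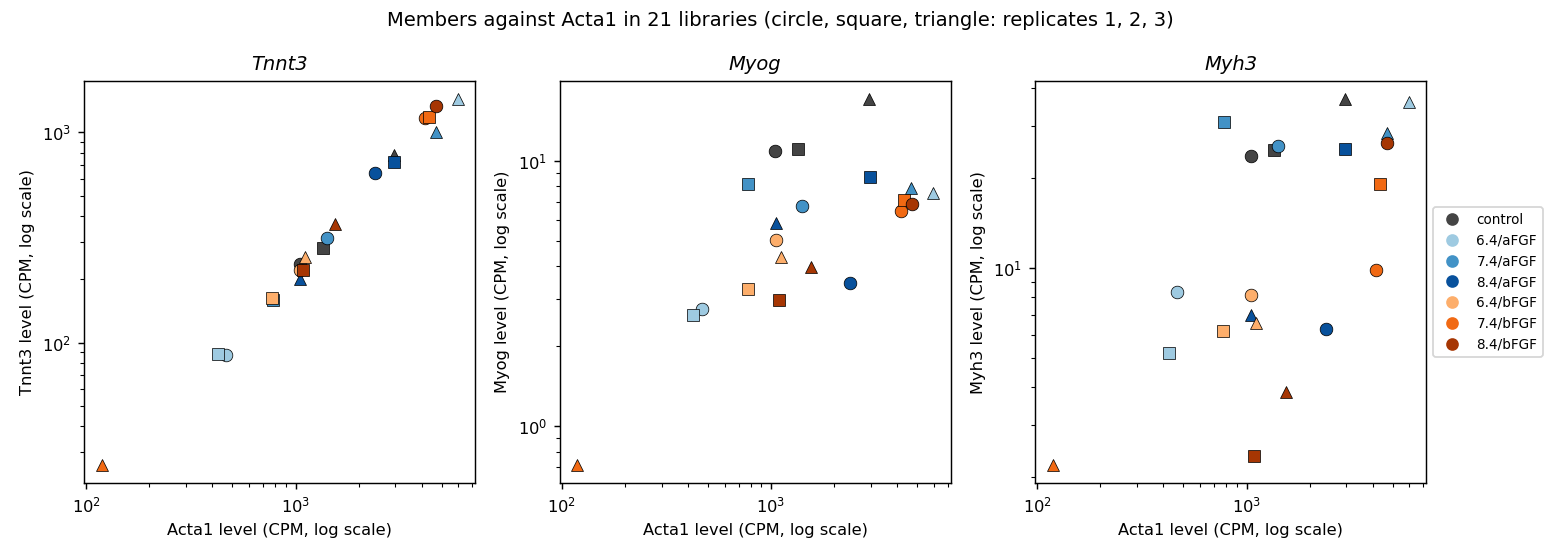
Levels of Tnnt3, Myog and Myh3 against Acta1 in CPM, both axes on a log scale, with 1 point per library and colours for the groups. Tnnt3 lies along 1 line with Acta1 (r = 0.996), while Myog (r = 0.710) and Myh3 (r = 0.621) scatter more widely.

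Among the fast members, Myh4 encodes the myosin heavy chain of the fastest fibres, type IIb. It was at 238, 157 and 907 CPM in control. With aFGF, Myh4 was at 58.4, 28.6 and 1849 CPM at pH 6.4, at 275, 52.1 and 1701 CPM at pH 7.4, and at 744, 1041 and 61.5 CPM at pH 8.4. With bFGF it was at 378, 171 and 191 CPM at pH 6.4, at 2455, 2369 and 9.52 CPM at pH 7.4, and at 2125, 446 and 556 CPM at pH 8.4. The same libraries were high and low as for Acta1, and all groups overlapped except that each library of 6.4/bFGF lay below each of 8.4/bFGF.

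Pvalb, the calcium-binding protein parvalbumin of fast fibres, was at 64.2, 49.8 and 436 CPM in control. In the aFGF groups it was at 5.70, 4.40 and 492 CPM at pH 6.4, at 61.1, 15.1 and 158 CPM at pH 7.4, and at 216, 196 and 18.6 CPM at pH 8.4. In the bFGF groups it was at 27.6, 20.3 and 69.3 CPM at pH 6.4, at 348, 431 and 1.54 CPM at pH 7.4, and at 512, 21.2 and 35.5 CPM at pH 8.4. The ratio of the highest to the lowest library of a group lay between 3.40 in 6.4/bFGF and 279 in 7.4/bFGF, so that the 3 mice of each group were far apart for this gene.

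Of the metabolic members, Ckm was at 297, 324 and 1129 CPM in control. With aFGF it was at 94.1, 82.3 and 2179 CPM at pH 6.4, at 374, 141 and 1621 CPM at pH 7.4, and at 1004, 969 and 208 CPM at pH 8.4. With bFGF it was at 326, 229 and 354 CPM at pH 6.4, at 1841, 1917 and 24.1 CPM at pH 7.4, and at 1983, 349.5 and 461 CPM at pH 8.4. Ckm thus followed Acta1 from library to library (r = 0.990). Mb, the oxygen-binding myoglobin, was at 38.9, 66.9 and 124 CPM in control. Mb in the aFGF groups was at 8.99, 11.5 and 226 CPM at pH 6.4, at 48.3, 31.0 and 149 CPM at pH 7.4, and at 81.5, 80.7 and 26.4 CPM at pH 8.4. Mb in the bFGF groups was at 30.4, 16.6 and 30.2 CPM at pH 6.4, at 159, 219 and 3.63 CPM at pH 7.4, and at 157, 15.1 and 33.7 CPM at pH 8.4. It followed Acta1 almost as closely (r = 0.966), and the low library of 7.4/bFGF was again replicate 3.

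Of the slow members, Myh7 (the slow and cardiac beta myosin heavy chain) varied most. It was at 0.185, 0.0575 and 13.9 CPM in control, where the lowest value stands for 2 counts. With aFGF, Myh7 was at 1.13, 0.0785 and 125 CPM at pH 6.4, at 1.01, 0.274 and 108 CPM at pH 7.4, and at 17.3, 50.8 and 0.135 CPM at pH 8.4. With bFGF it was at 18.2, 18.3 and 0.983 CPM at pH 6.4, at 130.3, 167 and 0.200 CPM at pH 7.4, and at 105, 26.9 and 33.3 CPM at pH 8.4. Of the 21 libraries, those of 8.4/bFGF were the only complete group above the highest control. Tnnt1, the slow troponin T, ranged less, with 10.8, 13.8 and 17.2 CPM in control. In the aFGF groups Tnnt1 was at 5.95, 5.65 and 65.8 CPM at pH 6.4, at 16.0, 13.0 and 67.0 CPM at pH 7.4, and at 22.1, 36.8 and 9.67 CPM at pH 8.4. In the bFGF groups Tnnt1 was at 13.3, 15.0 and 6.86 CPM at pH 6.4, at 51.0, 55.7 and 1.97 CPM at pH 7.4, and at 52.9, 12.3 and 19.6 CPM at pH 8.4. The range of every hydrogel group overlapped that of control.

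Of 6 slow fibre genes compared with it, Myh7 was closest to the slow light chains Myl2 and Myl3, which were not members (r = 0.957 and 0.944 in log2 CPM over 21 libraries). With the 4 slow members r was 0.581 (Tnni1, the slow troponin I) to 0.809 (Tnnt1), and the largest adjusted permutation p of these 6 pairs was 0.00551. These pairs were chosen after the values were seen. Heart is another tissue that makes Myh7, Myl2 and Myl3. The summed level of 6 cardiac genes, among them Myh6, the alpha myosin of the heart, lay between 2.10 and 14.5 CPM, against 12.6 to 618 CPM for the 5 slow members, and Myh6 itself had a median of 0 CPM.

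The shares of the 6 sarcomeric myosin heavy chain mRNAs show which fibre program made up the muscle RNA of a library. The genes Myh3, Myh2, Myh1, Myh4 and Myh8 lie side by side in RefSeq's gene order with 0 protein-coding genes between them, and are near-identical in parts of their sequence. How reads shared between them were counted is not given in the sources used here, so their shares are uncertain to that extent. On the FPKM scale, the 3 adult fast chains Myh4, Myh1 (type IIx) and Myh2 (type IIa) together made up 84.2% to 97.3% of the 6. Myh4 alone ranged from 14.5% (7.4/aFGF replicate 2) to 71.5% (8.4/aFGF replicate 1). The 2 developmental chains Myh3 and Myh8 together made up 0.533% (7.4/bFGF replicate 1) to 15.7% (7.4/aFGF replicate 2), and Myh7 0.0077% (control replicate 2) to 5.68% (6.4/bFGF replicate 2).

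The mean developmental share was 7.47% ± 2.68 in control, 6.85% ± 4.08 in 6.4/aFGF, 8.62% ± 6.96 in 7.4/aFGF, 3.12% ± 2.10 in 8.4/aFGF, 3.56% ± 0.802 in 6.4/bFGF, 4.73% ± 6.90 in 7.4/bFGF and 0.996% ± 0.279 in 8.4/bFGF (SD, n = 3 each). In 8.4/bFGF the 3 libraries were at 1.26%, 0.702% and 1.03%, below each control library (10.2%, 7.36% and 4.85%). The 3 libraries of 6.4/bFGF, at 2.66%, 3.83% and 4.20%, also lay below each control library. In 7.4/bFGF, by contrast, replicate 3 was at 12.7% and the other two at 0.533% and 0.962%. The library with the least muscle mRNA therefore had one of the highest developmental shares.

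**Figure D4:**
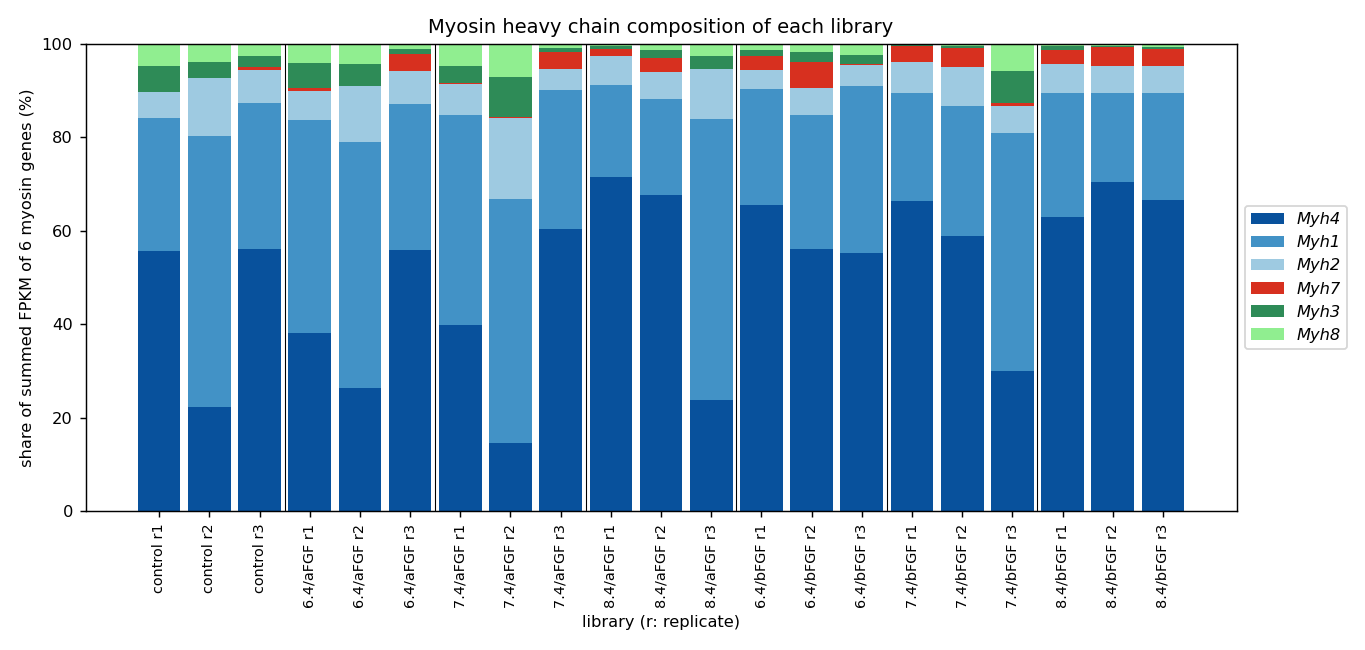
Stacked bars give the share of each of 6 myosin heavy chain genes in their summed FPKM, in percent, for each library. The fast adult chains fill 84.2% to 97.3% of every bar, and the developmental chains Myh3 and Myh8 reach 15.7% in 7.4/aFGF replicate 2 and stay at or below 1.26% in the 3 libraries of 8.4/bFGF.

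To compare muscle genes with each other inside a library, 7 ratios were tested in 3 ways each on log2(FPKM + 0.1). Of these 21 tests, 0 passed at an adjusted p under 0.05 (two-sided exact permutation tests, Benjamini-Hochberg over 21), and 2 had an unadjusted p under 0.05. Myh7 relative to Myh4 was higher in the hydrogel libraries (-4.86 ± 1.19, n = 18) than in control (-7.39 ± 1.19, n = 3), a difference of 2.54 (exact permutation p = 0.00902, adjusted p = 0.189, and 0.0553 to 0.413 over the alternatives). Myh7 was at 0.185 and 0.0575 CPM in 2 of the control libraries, so that the pseudocount set much of this value, and the difference ranged from 1.42 with FPKM + 1 to 3.83 with no pseudocount. Myog relative to Acta1 was lower in the hydrogel libraries (-8.15 ± 0.939, n = 18) than in control (-6.88 ± 0.428, n = 3), a difference of -1.27 (exact permutation p = 0.0241, adjusted p = 0.253). Between the growth factors, Myh3 relative to Myh4 was higher by 1.79 with aFGF (exact permutation p = 0.0670, adjusted p = 0.331) and Myh8 relative to Myh4 by 1.72 (exact permutation p = 0.0787, adjusted p = 0.331), with 9 libraries for each growth factor. Myh7 relative to Myh4 was lower with aFGF, a difference of -1.02 (exact permutation p = 0.0678, adjusted p = 0.331), and over the alternatives this difference lay between -1.67 and -0.17, with an adjusted p of 0.0553 to 0.896.

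The regeneration genes had their own order of libraries. Myh3, the embryonic myosin heavy chain, was at 23.8, 24.9 and 36.8 CPM in control. With aFGF it was at 8.33, 5.21 and 36.0 CPM at pH 6.4, at 25.7, 31.0 and 28.4 CPM at pH 7.4, and at 6.26, 25.2 and 6.97 CPM at pH 8.4. With bFGF it was at 8.15, 6.17 and 6.58 CPM at pH 6.4, at 9.86, 19.2 and 2.20 CPM at pH 7.4, and at 26.3, 2.35 and 3.85 CPM at pH 8.4. The 3 libraries of 7.4/aFGF were as high as control and close to each other, and in the other hydrogel groups at most 1 library reached that level. Myh8, the neonatal chain, was at 20.7, 28.2 and 43.1 CPM in control. Myh8 in the aFGF groups was at 6.39, 4.69 and 36.1 CPM at pH 6.4, at 33.1, 26.5 and 23.6 CPM at pH 7.4, and at 5.41, 21.2 and 6.97 CPM at pH 8.4. Myh8 in the bFGF groups was at 7.47, 5.67 and 8.23 CPM at pH 6.4, at 10.2, 20.2 and 1.89 CPM at pH 7.4, and at 16.9, 2.17 and 4.90 CPM at pH 8.4. It was high in the same libraries as Myh3 (r = 0.981).

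Myog encodes myogenin, the transcription factor under which myoblasts differentiate and fuse. It was at 10.9, 11.0 and 17.0 CPM in control. With aFGF, Myog was at 2.77, 2.62 and 7.58 CPM at pH 6.4, at 6.72, 8.17 and 7.89 CPM at pH 7.4, and at 3.47, 8.64 and 5.81 CPM at pH 8.4. With bFGF, Myog was at 5.04, 3.28 and 4.33 CPM at pH 6.4, at 6.44, 7.08 and 0.715 CPM at pH 7.4, and at 6.88, 3.00 and 3.99 CPM at pH 8.4. Each of the 18 hydrogel libraries was below each of the 3 control libraries. The group means were 13.0 ± 3.50 CPM in control and between 4.21 ± 0.884 (6.4/bFGF) and 7.59 ± 0.768 CPM (7.4/aFGF) with a hydrogel (SD, n = 3 each).

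Myod1 encodes MyoD, which commits satellite cells to the myogenic path. It was at 3.69, 3.51 and 8.55 CPM in control. In the aFGF groups it was at 0.664, 0.288 and 3.52 CPM at pH 6.4, at 1.40, 1.26 and 1.95 CPM at pH 7.4, and at 1.98, 3.24 and 0.919 CPM at pH 8.4. In the bFGF groups it was at 1.13, 1.28 and 0.759 CPM at pH 6.4, at 2.25, 4.97 and 0.0286 CPM at pH 7.4, the last from 1 count, and at 4.69, 1.29 and 1.63 CPM at pH 8.4. Of the 18 hydrogel libraries, 6.4/aFGF replicate 3, 7.4/bFGF replicate 2 and 8.4/bFGF replicate 1 lay above the lowest control, and the rest below it.

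Pax7, the satellite cell factor, was the least abundant member, at 0.185, 0.518 and 1.67 CPM in control. With aFGF it was at 0.0553, 0.183 and 0.583 CPM at pH 6.4, at 0.364, 0.384 and 0.385 CPM at pH 7.4, and at 0.304, 0.582 and 0.270 CPM at pH 8.4. With bFGF it was at 0.340, 0.111 and 0.590 CPM at pH 6.4, at 0.664, 0.937 and 0 CPM at pH 7.4, and at 0.659, 0.0775 and 0.138 CPM at pH 8.4. The library at 0, 7.4/bFGF replicate 3, allows a level of up to 0.0858 CPM (3 counts, counting error only). Control and hydrogel libraries overlapped, and at these levels a difference between groups was not detectable. Among the 5 regeneration genes, the 10 pairs had r of 0.721 (Myh3 with Myod1) to 0.981, and at least 0.563 without the 2 libraries named above. These pairs, too, were chosen after the values were seen.

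The study asked whether the pH of the hydrogel changes the response to each growth factor. With aFGF, the fitted values of the mature fibre genes had no common direction between pH 6.4 and 7.4: 22 of 35 were higher and 13 lower at pH 6.4, with a median log2 fold change of 0.14 beside 0.02 over all genes tested. The 5 regeneration genes were at lower values in all 5 cases, with a median of -0.77. Of the 40 members 0 passed the test, as did 0% of the 15019 genes tested, and 0 members had an unadjusted p under 0.05, against 4.99% of all genes. DESeq2 passed 0 members as well, with 0 at an unadjusted p under 0.05, and limma on log2 FPKM passed 0 in each of the 10 comparisons. The fitted values averaged over libraries far apart. Measured from each gene's median over the 21 libraries on the log2 scale, 6.4/aFGF replicate 3 was above it in 35 of 35 mature genes (median deviation 2.29), and replicates 1 and 2 in 0 of 35 (-1.74 and -1.86). The 7.4/aFGF libraries lay between these, at 0.063, -0.72 and 1.81. Without 6.4/aFGF replicate 3, 0 members passed and 36 had an unadjusted p under 0.05, against 8.99% of all genes (smallest edgeR adjusted p of a member 0.438). The 6.4/aFGF libraries left were those with low values of the mature genes, so the direction was then lower at pH 6.4. This count describes what the comparison rests on and is no independent test.

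Between 8.4/aFGF and 7.4/aFGF the median was -0.10 for the mature genes, -0.35 for the regeneration genes and 0.00 over all genes tested. Myh3 and Myh8 lay lower at pH 8.4 without overlap, as did 4.21% of all genes tested. On the log2 scale the difference was -1.15 for Myh3 (standard error 0.535) and -1.31 for Myh8 (standard error 0.512), and the edgeR adjusted p was 1.00 for both. The test passed 0 of 40 members (0% of 14968 genes). At an unadjusted p under 0.05 there was 1 member, Myh8, against 3.01% of all genes. DESeq2 passed 0 members and had 2 at an unadjusted p under 0.05.

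With bFGF, all 35 mature genes were at lower values in 6.4/bFGF than in 7.4/bFGF. Their median log2 fold change was -2.05 (range -3.37 to -1.51), that of the 5 regeneration genes was -0.57, and that of all genes was 0.01. For Acta1 it was -1.53 (standard error 1.06, edgeR adjusted p = 0.668), for Myh4 -2.69 (standard error 1.49, edgeR adjusted p = 0.610) and for Mb -2.28 (standard error 1.17, edgeR adjusted p = 0.589). In edgeR's quasi-likelihood test with Benjamini-Hochberg adjustment 0 of 40 members passed (0% of 14976 genes), and 0 had an unadjusted p under 0.05 (8.89% of all genes). DESeq2 passed 0 members and had 7 at an unadjusted p under 0.05.

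This count rested on 1 library, 7.4/bFGF replicate 3. Without it, and so with 3 libraries against 2, 34 of the 40 members passed as lower in 6.4/bFGF, where 1.83% of the 15199 genes tested passed in either direction. The library was the lowest for these same genes, so this count describes what the comparison rests on and is no independent test. The members that passed were all mature genes but Myh7 (log2 fold change -3.55, edgeR adjusted p = 0.169), with a median of -2.61 over the 35. Values ran from -2.06 for Tnni1 to -3.95 for Myh2 (standard error 0.238, edgeR adjusted p = 0.00410). On the log2 scale Acta1 was lower, at -2.09 (standard error 0.187, edgeR adjusted p = 0.00695), Ckm at -2.61 (standard error 0.204, edgeR adjusted p = 0.00533) and Tnnt1 at -2.17 (standard error 0.311, edgeR adjusted p = 0.0303). The regeneration genes had a median of -1.07 and 0 of 5 passed, with 4 at an unadjusted p under 0.05, beside 15.1% of all genes. The level of other tissue markers also set replicate 3 apart: 9 adipocyte genes summed to 8007 CPM in it and to 1214 and 979 CPM in the other 7.4/bFGF libraries, and 5 keratinocyte genes summed to 1676 CPM, the lowest of all libraries. Their part in the result was not tested.

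Between 8.4/bFGF and 7.4/bFGF, all 35 mature genes were at lower values at pH 8.4, with a median of -0.53 (range -1.03 to -0.14), while the regeneration genes had a median of -0.02. Of the members 0 passed (0% of 15092 genes), and 0 had an unadjusted p under 0.05 (5.72% of all genes), and DESeq2 had 0 by either count. Without 7.4/bFGF replicate 3 there were 0 by either count as well.

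For the growth factors at 1 pH, the fitted values of the mature genes took opposite directions at different pH, and these comparisons share libraries with those above. At pH 6.4, 35 of 35 were at higher values with aFGF than with bFGF (median 1.44). In Acta1, Myh4, Ckm, Mb and Pvalb, however, 6.4/aFGF replicate 3 was above all 3 libraries of 6.4/bFGF and the other 2 libraries of its group were below them. The median deviation of the mature genes was 2.29 in 6.4/aFGF replicate 3 and -1.74 and -1.86 in replicates 1 and 2. In 6.4/bFGF it was -0.27, -0.80 and -0.46. The direction at pH 6.4 thus rested on 6.4/aFGF replicate 3. At pH 7.4, 34 of 35 were at lower values with aFGF (median -0.73), and at pH 8.4, 30 of 35 (median -0.44). The test passed 0 members at each pH, beside 0% of 14994 genes, 0% of 15049 genes and 0.00665% of 15041 genes. An unadjusted p under 0.05 was found for 0 members each time, against 8.16%, 13% and 21.1% of all genes, and DESeq2 passed 0 members, with 1, 2 and 0 at an unadjusted p under 0.05. Leaving out 1 library changed the unadjusted counts. At pH 6.4 without 6.4/aFGF replicate 3, 32 members had an unadjusted p under 0.05, against 8.2% of all genes (smallest edgeR adjusted p of a member 0.289). By the medians above, the mature genes then lay lower with aFGF, the reverse of the full fit. At pH 7.4 without 7.4/bFGF replicate 3, 12 members had an unadjusted p under 0.05, against 15.2% of all genes (smallest edgeR adjusted p of a member 0.268). In either case 0 members passed. Both libraries were extreme for these same genes, so the counts describe what the comparisons rest on and are no independent tests.

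At pH 7.4 the fitted values of the developmental myosins were above 0 and those of the adult fast chains below 0. The adult fast chains overlapped between the groups, and none of these genes passed. Myh3 and Myh8 were higher in each 7.4/aFGF library than in each 7.4/bFGF library, by 1.45 (standard error 0.673, edgeR adjusted p = 0.405) and 1.38 on the log2 scale (standard error 0.731, edgeR adjusted p = 0.443). Of the 40 members these 2 (5%) were higher with aFGF without overlap, as were 9.79% of all genes tested. Over the 5 regeneration genes the median was 0.68. How the pH contrast of 6.4 against 7.4 differed between the growth factors was tested as an interaction. Its value was above 0 for 35 of 35 mature genes (median 2.20, range 1.08 to 3.85) and had a median of -0.20 for the regeneration genes. This contrast, too, held 6.4/aFGF replicate 3, with a median deviation of 2.29 in the mature genes. Replicates 1 and 2 of its group were at -1.74 and -1.86. The direction of the interaction without 6.4/aFGF replicate 3 is not given here. Of the 40 members 0 passed (0% of 15449 genes), and 0 had an unadjusted p under 0.05 (6.09% of all genes), and DESeq2 had 0 by either count. Without 7.4/bFGF replicate 3, 0 passed and 5 had an unadjusted p under 0.05, against 7.16% of all genes (smallest edgeR adjusted p of a member 0.693).

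Against control, the 6 hydrogel groups together showed lower values of the regeneration genes and no common shift of the mature genes. The log2 fold change was -1.36 for Myog (standard error 0.399, edgeR adjusted p = 0.153), -1.59 for Myod1 (standard error 0.659, edgeR adjusted p = 0.245), -1.37 for Myh8 (standard error 0.572, edgeR adjusted p = 0.248), -1.15 for Myh3 (standard error 0.597, edgeR adjusted p = 0.343) and -1.16 for Pax7 (standard error 0.760, edgeR adjusted p = 0.456). Without control replicate 3 the value for Pax7 was 0.039. The median of the 5 genes was -1.36, beside 0.17 for the mature genes (23 higher, 12 lower) and -0.02 over all 15811 genes. Of the 40 members 0 passed in edgeR's quasi-likelihood test with Benjamini-Hochberg adjustment, beside 0.00632% of all genes. An unadjusted p under 0.05 was found for 3 members, Myog, Myh8 and Myod1, all 3 lower, against 16.7% of all genes in either direction and 10.4% as lower. Myog was lower without overlap, as were 0.228% of all genes. DESeq2 passed 0 members, had 3 at an unadjusted p under 0.05, and gave a smallest adjusted p of 0.0708 among them.

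Among the mature genes, the slow myosin Myh7 had the highest value, 2.91 (standard error 2.14, edgeR adjusted p = 0.509), and was at 8.16 without control replicate 3, the only control with more than 1 CPM of it. Acta1 was at 0.19 (standard error 0.824, edgeR adjusted p = 0.933), Myh4 at 0.65 (standard error 1.26, edgeR adjusted p = 0.830), Tnnt1 at 0.80 (standard error 0.827, edgeR adjusted p = 0.645) and Pvalb, the lowest, at -0.60 (standard error 1.24, edgeR adjusted p = 0.841). With standard errors near 1 on the log2 scale, differences of 2-fold in single mature genes were not detectable here. In the test for any difference among the 7 groups, 0 of 40 members passed (0.114% of 15811 genes), 0 had an unadjusted p under 0.05 (19.3% of all genes), and DESeq2 passed 0 and had 2 at an unadjusted p under 0.05.

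Since Myog and Acta1 varied together within groups, the hydrogel comparison was also fitted with the Acta1 level of each library as a covariate, a fit chosen with the values already seen. The same covariate was fitted in each of the other comparisons, where no member passed. In the hydrogel comparison, the standard errors of the regeneration genes were smaller with the covariate. Myog was lower, at -1.36 on the log2 scale (standard error 0.219, edgeR adjusted p = 0.0424) and was the only one of the 39 members tested to pass, where 0.0949% of 15810 genes passed. Without 1 library each, its adjusted p lay between 0.00466 and 0.279, past the threshold in 14 of 21 cases and highest without control replicate 3, and over the other settings between 0.000157 (DESeq2) and 0.0442 (Ckm as covariate). Myod1 was at -1.68 (standard error 0.311, edgeR adjusted p = 0.0506), Myh8 at -1.43 (standard error 0.319, edgeR adjusted p = 0.0763), Myh3 at -1.24 (standard error 0.370, edgeR adjusted p = 0.120) and Pax7 at -1.001 (standard error 0.512, edgeR adjusted p = 0.309). The mature genes had a median of -0.02, with 18 lower and 16 higher. Since they followed Acta1 closely (median r = 0.958), a median near 0 was largely set by the covariate and is no independent result. Of the 34 mature genes, 11 had an unadjusted p under 0.05 in edgeR's test, as had 4 of the 5 regeneration genes. Over all 15810 genes the number was 2900, a smaller share than in either list. With DESeq2 and the same covariate, the mature gene Myh7 had an adjusted p of 0.0390, so low adjusted p were not confined to the regeneration genes. Unlike these, Myh7 was higher with a hydrogel in edgeR's fit with the covariate, at 3.03 (edgeR adjusted p = 0.181).

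**Figure D5:**
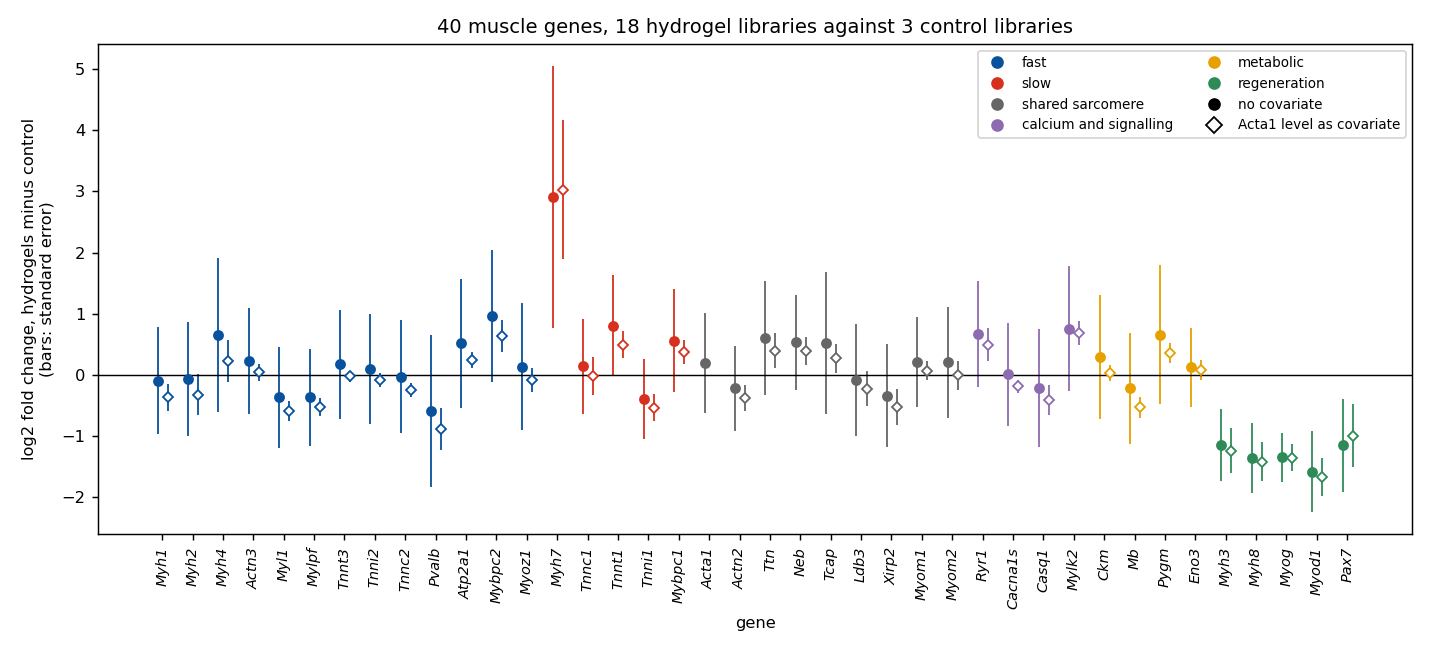
Log2 fold change of the hydrogel libraries minus control for each of the 40 genes, with bars of 1 standard error, filled without and open with the Acta1 level as a covariate. The 5 regeneration genes lie below 0 in both fits, with shorter bars under the covariate, and the mature genes spread around 0 with Myh7 highest (2.91 and 3.03).

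Genes of muscle outside the 40 were compared in the same fit. Of 14 further genes of developing or regenerating muscle that were tested, 10 were at lower values with a hydrogel (median -0.62) and 0 passed. The largest value was that of Actc1, the cardiac actin that new skeletal fibres also make (-1.34, edgeR adjusted p = 0.301), followed by Mymk, the fusion protein myomaker, and Megf10, a satellite cell receptor (-1.01 each). Of 34 further mature fibre genes, 22 were at higher values (median 0.07), and of 7 further slow fibre genes, 4 (median 0.00), with 0 passed. Of 5 genes of muscle wasting, 4 were at higher values (median 0.50), from Mstn, the growth inhibitor myostatin (-1.02, edgeR adjusted p = 0.646), to Klhl38 (1.79, edgeR adjusted p = 0.427), and 0 passed.

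Of the other cell types in the skin, adipocyte genes moved in the same direction as the regeneration genes. All 9 were at lower values with a hydrogel (median -1.42), 6 of them at an unadjusted p under 0.05, beside the 10.4% of all genes given above as lower, and 0 passed. Their sum was 10315, 886 and 5585 CPM in control and 538 to 8007 CPM in the hydrogel libraries, and their part in the result for Myog was not tested. The 6 smooth muscle genes summed to 324 to 659 CPM over all libraries, the 5 keratinocyte genes to 1676 to 4811 CPM and the 5 fibroblast genes to 32429 to 71240 CPM, and their median log2 fold changes against control were -0.14, 0.08 and 0.02.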

How the data were processed

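RNA-seq libraries of 21 wounds on Day 4 (7 groups of 3 mice) were used. For each library the authors deposited read counts per gene as raw whole numbers, and FPKM values, which equal the count over a fixed length per gene and the library total (checked on 12266 genes, spread at most 1.68e-06%). The genome was GRCm39 per the submitters' processing notes. The aligner, the counting tool and its treatment of shared reads are not given in the sources used here.

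The main test was the quasi-likelihood test of edgeR 4.0.16 in R 4.3.3, with TMM scaling, the default filter on low counts, and Benjamini-Hochberg adjustment over all genes tested. For log2 CPM the prior count was 2. Each fit held the libraries of the groups compared (4 groups for the interaction, all 21 libraries for hydrogels against control and for any difference), with a mean per group. Isoform ratios and correlations used Python 3.11.15 and scipy 1.17.1. Alternatives were DESeq2 1.42.0, limma 3.58.1 on log2(FPKM + 0.1) or log2(FPKM + 1) at a mean FPKM of at least 1, other normalization and filters, the replicate number as a block, leaving out each library, and leaving out the 3 libraries with genes of other tissues. The Acta1 covariate and the pairs of genes were chosen after seeing the data. Only some of the tests were first tried on simulated data. The fit with the Acta1 covariate was not among them.

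The members and the gene lists were chosen with earlier results of these data known. Values in every library are given for Acta1, Myh4, Myh7, Tnnt1, Ckm, Mb, Pvalb, Myh3, Myh8, Myog, Myod1 and Pax7, and of other lists for the genes with the largest values. Other genes named were chosen after their values were seen. No sequence is shown, since no sequence of these genes was used here.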

Additional observations from a re-analysis of the deposited data

How the results depend on the processing

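In 9 of the 10 comparisons, 0 of the 40 members passed under every other setting fixed at the start. In 6.4/bFGF against 7.4/bFGF, 0 to 34 members passed when each library was left out in turn, 34 of them only without 7.4/bFGF replicate 3. With the covariate, chosen after seeing the data, the number that passed in hydrogels against control was 1 (Acta1), 1 (Ckm), 5 (Acta1, DESeq2), 2 (Acta1, without the 3 libraries with genes of other tissues), and 0 to 6 without 1 library each. It was 0 without control replicate 1 or 3, 6.4/aFGF replicate 1 or 3, 6.4/bFGF replicate 2 or 3, or 7.4/bFGF replicate 1, and 6 without control replicate 2. Myog did not pass without control replicate 3 (adjusted p = 0.279), and Pax7, Mb and Pvalb against control turned from -1.16, -0.22 and -0.60 to 0.039, 0.33 and 1.12 without that library.

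Log2 fold changes of some mature genes against control changed sign with the setting. Those of Myh7 (1.44 to 8.16) and Tnnt1 (0.33 to 0.999) did not. With limma, Acta1 was at -0.18 on both FPKM scales, Ckm at -0.18 on both, and Myh4 at -0.027 with a pseudocount of 0.1. Without 1 library each, the range was -0.20 to 0.78 for Acta1, -0.24 to 1.22 for Ckm, -0.72 to 0.33 for Mb, -1.43 to 1.12 for Pvalb and -1.61 to 0.039 for Pax7. The isoform ratios between pH 6.4 and 7.4 also changed sign: Tnni1/Tnni2 was 0.023 with FPKM + 1, and Myh3/Myh4 and Myh8/Myh4 were -0.10 and -0.19 without the 3 libraries. Without 1 library each they ranged from -0.51 to 0.92 (Myh3/Myh4), -0.53 to 0.84 (Myh8/Myh4), -0.49 to 0.44 (Myh7/Myh4), -0.41 to 0.14 (Tnnc1/Tnnc2), -0.26 to 0.18 (Tnni1/Tnni2) and -0.23 to 0.12 (Tnnt1/Tnnt3), and between the growth factors from -0.27 to 0.13 (Tnnc1/Tnnc2) and -0.032 to 0.19 (Tnnt1/Tnnt3). The causes were not tested. With the replicate number as a replicate block, 0 members passed in each comparison and Myog against control was at -1.35. The numbers did not pair the libraries: the mean r of deviations was -0.0163 for the same number and 0.00696 for different ones, and 5 of 21 libraries were closest to their own number.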
